A study of Mus musculus with 3 samples.

Results

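Gata6, Gata4, Sox17, Sox7, Pdgfra, Hnf4a, Ttr, Apoe, Cubn and Dab2 are 10 genes that regulate or mark the primitive endoderm of the mouse embryo. They were taken by name from 3 deposited gene tables of 31510 genes each, 6 by the symbol in the tables and 4 by their Ensembl identifier, and all 10 were found. The tables come from 3 libraries of CD-1 mouse blastocysts, 1 each of dormant, reactivating and reactivated embryos, and each library was made from a pool of more than 3000 blastocysts. The comparison asks how blastocysts of differing competence to implant differ in their RNA.

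All groups shared the same treatment to delay implantation: pregnant females, labelled as 2 months old, were ovariectomized on day 4 and given 2 mg of progesterone each on days 5 to 7. Dormant blastocysts were flushed on day 8 without estradiol (E2). Reactivating blastocysts came from females killed 6 h after an injection of E2 on day 7, and reactivated blastocysts from females killed 12 h after it. A day of collection is given only for the dormant blastocysts. The time of collection may thus have differed along with the hormone, and the effects of these cannot be told apart. With 1 library per state there was no replicate, so no SD, test or p-value is given, and the intervals are 95% intervals that cover counting error only. Because whole embryos were pooled, fewer cells of a type and less RNA per cell cannot be told apart.

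The primitive endoderm is the layer of the late blastocyst that covers the epiblast on the side of the cavity and gives rise to the parietal and visceral endoderm of the yolk sac. FGF signalling and the transcription factor GATA6 set cells of the inner cell mass on this path, while NANOG marks those that become epiblast, and SOX17, GATA4 and SOX7 follow in the committed cells. The visceral endoderm feeds the early embryo: it takes up maternal proteins through cubilin and its partners, and secretes carrier proteins of the kind later made by the liver.

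The library totals behind the authors' RPKM (exon reads scaled to the exon length and the total reads) ranged from 14118723 to 18982195 reads. Mitochondrial genes took 19.7% of exon reads in the dormant library, 19.8% in the reactivating and 25.8% in the reactivated library. Reads on the opposite strand made up 4.08% to 5.18%, and introns 23.5% to 27.7% of exon and intron reads together.

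A gene was counted as risen or fallen by a size rule, a log2 difference of (RPKM + 1) of at least 1 in size where the higher library reached 1 RPKM. In RPKM, Apoe and Dab2 were far above the other 8 genes, and by this rule they were the members that fell between 6 h and 12 h after E2. Apoe fell from 252 to 77.4 RPKM and Dab2 from 157 to 53.2 RPKM. Together they made up 84.5% of the summed RPKM of the 10 genes in the dormant, 86.2% in the reactivating and 68.5% in the reactivated library, and the sum went from 469 and 474 RPKM to 191 RPKM. The other 8 genes summed to 72.8, 65.3 and 60.1 RPKM in the same order. No member rose by the size rule from dormant to reactivating, from dormant to reactivated or from reactivating to reactivated. Over all genes tested, 2.68%, 5.27% and 3.82% rose in these 3 comparisons, and 7.63% fell in the last. A count of 0 risen members is thus near the share over all genes. With a pseudocount of 0.1 in place of 1, Hnf4a rose from dormant to reactivated.

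**Figure D1:**
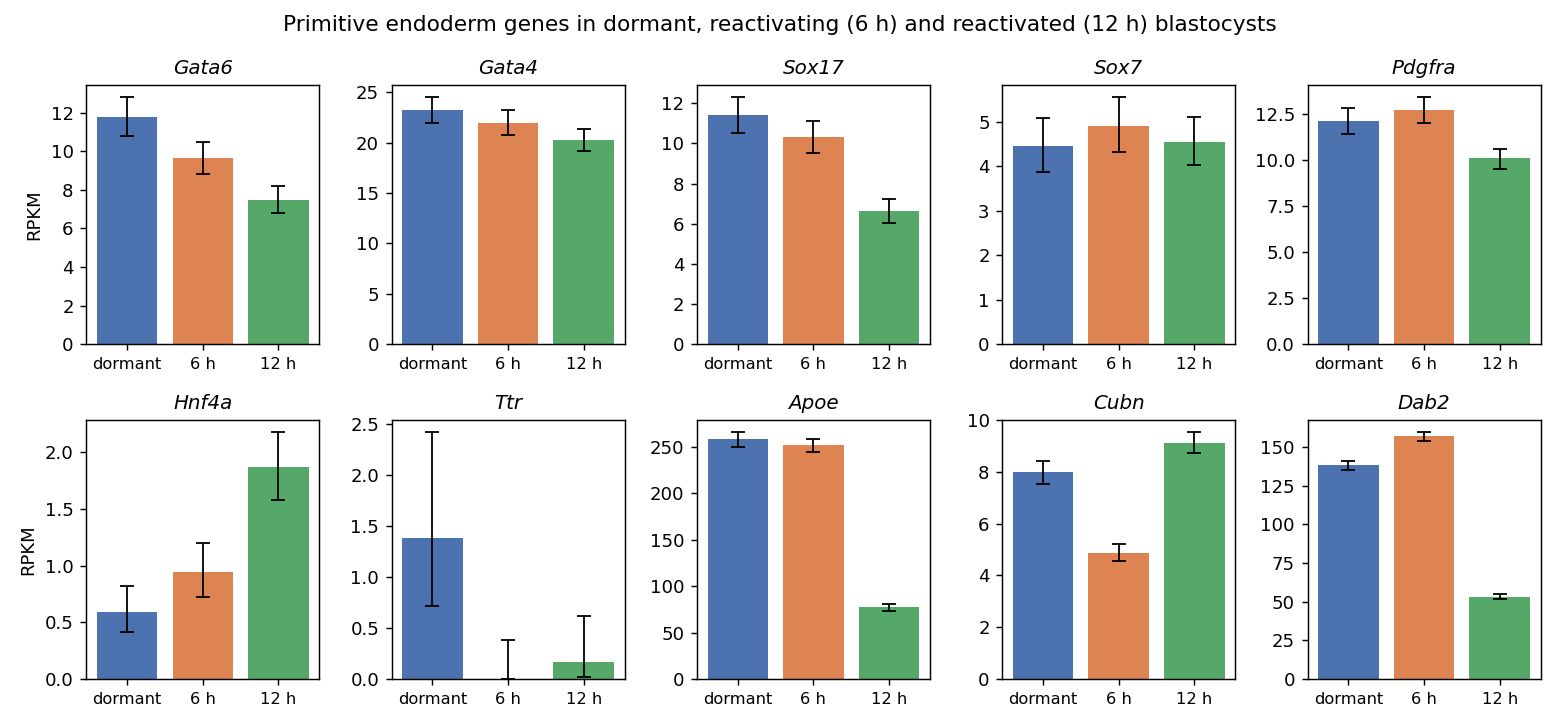
Level of each of the 10 primitive endoderm genes in the dormant, reactivating and reactivated library, in RPKM. Error bars mark the 95% Poisson interval of the exon reads, with 1 library per state. Apoe and Dab2 stood highest in all 3 libraries and lowest of their own levels in the reactivated one, while Ttr had no exon read in the reactivating library.

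Apoe encodes apolipoprotein E, a lipid carrier that the visceral endoderm secretes. Its level was 258 RPKM (95% Poisson interval 250.0 to 266) in dormant, 252 RPKM (244 to 259) in reactivating and 77.4 RPKM (73.6 to 81.2) in reactivated blastocysts. The first 2 intervals overlap, and the reactivated library lies far below both. Against dormant, the ratio of exon reads per library total was 0.976 (exact 95% interval 0.935 to 1.02) at 6 h and 0.300 (0.283 to 0.318) at 12 h, a log2 difference of -1.72 at 12 h. Reads across exon junctions, which come from spliced RNA, gave a ratio of 0.296 (0.248 to 0.351). Among all genes, ranked by RPKM, Apoe went from rank 247 to rank 552.

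Dab2 encodes an endocytic adaptor that links receptors such as cubilin and megalin to clathrin. Its level was 138 RPKM (135 to 141) in dormant, 157 RPKM (154 to 159.6) in reactivating and 53.2 RPKM (51.7 to 54.8) in reactivated blastocysts. All 3 intervals lie apart, with the highest level at 6 h and the lowest at 12 h. Against dormant, the ratio was 1.14 (1.11 to 1.17) at 6 h and 0.386 (0.373 to 0.400) at 12 h, and the log2 differences were 0.18 and -1.36. Junction reads gave 0.377 (0.344 to 0.413) at 12 h, so that spliced RNA and exon reads moved by much the same factor.

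The sequences upstream of these 2 genes are shown because both passed the size rule at 12 h against dormant and against 6 h. Both windows are from the RefSeq promoter table (GRCm38.p6), on the strand of the gene, and hold 250 bases before the start and 30 after it, for the outermost start listed. Capitals mark matches to short motifs, GATA factor motifs (AGATAA or AGATAG or TGATAA or TGATAG) in Dab2 and SOX factor motifs (ACAAAG or ACAATG) in Apoe, searched on either strand. The Apoe window is chr7:19699159-19699438, minus strand, and the Dab2 window chr15:6299539-6299818, plus strand.
Apoe: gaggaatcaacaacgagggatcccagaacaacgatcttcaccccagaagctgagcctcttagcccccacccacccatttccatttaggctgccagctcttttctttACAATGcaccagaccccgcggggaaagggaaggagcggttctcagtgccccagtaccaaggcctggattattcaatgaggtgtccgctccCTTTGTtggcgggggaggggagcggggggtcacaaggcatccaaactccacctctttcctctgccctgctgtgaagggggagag
Dab2: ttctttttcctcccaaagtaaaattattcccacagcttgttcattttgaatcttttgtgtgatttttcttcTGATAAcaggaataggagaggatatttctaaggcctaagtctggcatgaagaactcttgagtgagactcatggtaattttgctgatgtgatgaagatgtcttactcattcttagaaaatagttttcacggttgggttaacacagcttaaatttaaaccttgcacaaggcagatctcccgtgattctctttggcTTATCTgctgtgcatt
In the Apoe window ACAATG lies 144 to 139 bases before the start, and ACAAAG on the other strand, read here as CTTTGT, lies 54 to 49 before it. In the Dab2 window TGATAA lies 179 to 174 bases before the start, and AGATAA on the other strand, read as TTATCT, lies in the bases 14 to 19 after it. Such short motifs are common: of 32851 promoters in the table, cut to the same 280 bases, 28.7% held a GATA and 27.4% a SOX motif. From the table, 9 promoters were searched for 5 of the members, Apoe, Dab2, Cubn, Hnf4a and Pdgfra. Gata6 and Ttr were left out of the search, and the table held no promoter of Gata4, Sox17 or Sox7. Another start of Apoe held AGATAG and an Hnf4a start held AGATAA, while the Cubn and Pdgfra promoters held none of these spellings and no promoter of the 5 genes held the HNF4A motif CAAAGTCCA. The inner start of Dab2, a further start of Apoe and the other start of Hnf4a also held no GATA or SOX motif. Over the whole 300 bases of a promoter, as searched for these genes, the motifs were found in 29.8% (GATA), 28.6% (SOX) and 0.475% (HNF4A) of all promoters. These matches describe the letters only.

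Levels of RNA from other cells that also express Apoe or Dab2 were read from marker lists. Of 10 macrophage and leukocyte markers, 4 reached the 1 RPKM minimum between dormant and reactivated, and 3 of these 4 fell (Laptm5, Tyrobp and Cd14). Over all genes tested, 7.66% fell and 5.27% rose between these states. Tyrobp and Cd14 reached the minimum in this pair only through their dormant levels, so that their falls follow in part from the filter. The summed level of the 10 markers was 23.5 RPKM in dormant, 16.7 RPKM in reactivating and 7.27 RPKM in reactivated blastocysts. Laptm5, a lysosomal protein of blood cells, held 13.7, 11.5 and 4.11 RPKM of this, C1qb had 1 exon read in each library, C1qa had no exon read at 6 h and Tyrobp none at 12 h. In CPM (exon reads scaled to their sum) Tyrobp was below the minimum. Of 10 trophectoderm markers, with sums of 1320.1, 1309 and 1036 RPKM, 1 rose (Elf5) and 2 fell (Cdx2 and Gata3) from dormant to reactivated. Cdx2, the transcription factor of the trophectoderm, was at 113, 95.8 and 34.8 RPKM, and Krt18, its keratin, at 807, 834 and 624 RPKM. The part of these cells in the Apoe and Dab2 levels was not tested.

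Gata6 encodes the transcription factor at the head of the primitive endoderm programme. Its level was 11.8 RPKM (10.8 to 12.8) in dormant, 9.64 RPKM (8.80 to 10.5) in reactivating and 7.47 RPKM (6.80 to 8.19) in reactivated blastocysts. No pair of these intervals overlaps, and the order was dormant, reactivating, reactivated from high to low. The ratio of exon reads was 0.817 (0.721 to 0.926) at 6 h and 0.633 (0.558 to 0.719) at 12 h against dormant, with a log2 difference of -0.60 at 12 h, inside the size rule.

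Gata4, which encodes a related GATA factor, was at 23.2 RPKM (21.9 to 24.5), 21.9 RPKM (20.8 to 23.2) and 20.3 RPKM (19.2 to 21.4) in dormant, reactivating and reactivated blastocysts. Neighbouring levels overlap in their intervals, and only the dormant and reactivated ones lie apart. It was the most abundant of the 5 transcription factors per length in each library. Its ratio at 12 h was 0.876 (0.810 to 0.947).

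Sox17 and Sox7 encode related SOX factors of the endoderm, and they differed in their course. Sox17 was at 11.4 RPKM (10.5 to 12.3) in dormant, 10.3 RPKM (9.50 to 11.1) in reactivating and 6.63 RPKM (6.06 to 7.23) in reactivated blastocysts. The first 2 intervals overlap and the reactivated one lies below both, with a log2 difference of -0.70 from dormant. Sox7 was at 4.45 RPKM (3.86 to 5.09), 4.91 RPKM (4.32 to 5.55) and 4.54 RPKM (4.02 to 5.10). Its 3 intervals overlap, and its ratio at 12 h was 1.02 (0.850 to 1.23), an interval that lies above that of Sox17, 0.581 (0.517 to 0.654).

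Hnf4a encodes a nuclear receptor needed for the secretory work of the visceral endoderm. It was at 0.590 RPKM (0.419 to 0.820; 37 exon reads) in dormant, 0.940 RPKM (0.726 to 1.20; 65 reads) in reactivating and 1.87 RPKM (1.58 to 2.18; 156 reads) in reactivated blastocysts. The reactivated library was above both others, and those 2 overlap. The ratio of exon reads at 12 h was 3.14 (2.18 to 4.62), and reads across junctions numbered 1, 3 and 13. On the scale of the size rule its log2 difference was 0.85, short of the threshold, and with a pseudocount of 0.1 in place of 1 it was 1.51 and in CPM 1.39, both past it. Reads on the opposite strand, where the annotated gene Hnf4aos overlaps, numbered 6, 14 and 21.

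Pdgfra encodes the receptor for PDGF that is among the earliest surface markers of the lineage. It was at 12.1 RPKM (11.4 to 12.8) in dormant, 12.7 RPKM (12.0 to 13.4) in reactivating and 10.1 RPKM (9.51 to 10.6) in reactivated blastocysts. The reactivated interval lies below the other two, which overlap, and its log2 difference from dormant was -0.24. Of 5 genes for PDGF ligands and the partner receptor, 1 reached 1 RPKM between dormant and reactivated. That was the ligand Pdgfa, which rose from 14.4 RPKM in dormant to 30.1 RPKM in reactivated blastocysts (log2 difference 1.01), with 18.4 RPKM at 6 h. In CPM its difference was 0.996, just inside the rule.

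Cubn encodes cubilin, the endocytic receptor that takes up proteins such as apolipoproteins on the apical surface of the visceral endoderm. It was at 7.98 RPKM (7.55 to 8.43) in dormant, 4.88 RPKM (4.56 to 5.22) in reactivating and 9.12 RPKM (8.72 to 9.54) in reactivated blastocysts. All 3 intervals lie apart, with the lowest level at 6 h and the highest at 12 h, an order found in no other member. The ratio of exon reads was 0.612 (0.561 to 0.668) at 6 h against dormant and 1.87 (1.72 to 2.03) at 12 h against 6 h. The log2 differences were -0.61 and 0.78, so neither passed the size rule. Dab2, the adaptor, stood at 17.3, 32.1 and 5.83 times the RPKM of Cubn in dormant, reactivating and reactivated blastocysts.

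Ttr encodes transthyretin, a carrier of thyroid hormone and retinol that marks the visceral endoderm. It was near its detection limit, with 12 exon reads (1.38 RPKM, 0.715 to 2.42) in the dormant library, none in the reactivating (0 RPKM, up to 0.383) and 2 in the reactivated one (0.170 RPKM, 0.0208 to 0.620). The dormant interval lies above both others, which overlap. Reads on the opposite strand of Ttr numbered 5 in the dormant, 2 in the reactivating and 7 in the reactivated library. In dormant they made up 27.8% (Wilson interval 12.5 to 50.9), against a median of 2.31% over 9185 protein-coding genes with introns at 1 RPKM or more. By the size rule Ttr fell at 6 h (log2 difference -1.25) and at 12 h (-1.02). The exact interval of the exon ratio at 6 h reaches from 0 to 0.324. With a floor of 3 reads for the library at 0, which is 0.311 RPKM, the log2 difference at 6 h was -0.86, inside the rule. At 12 h the difference was -0.99 in CPM, also inside it.

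**Figure D2:**
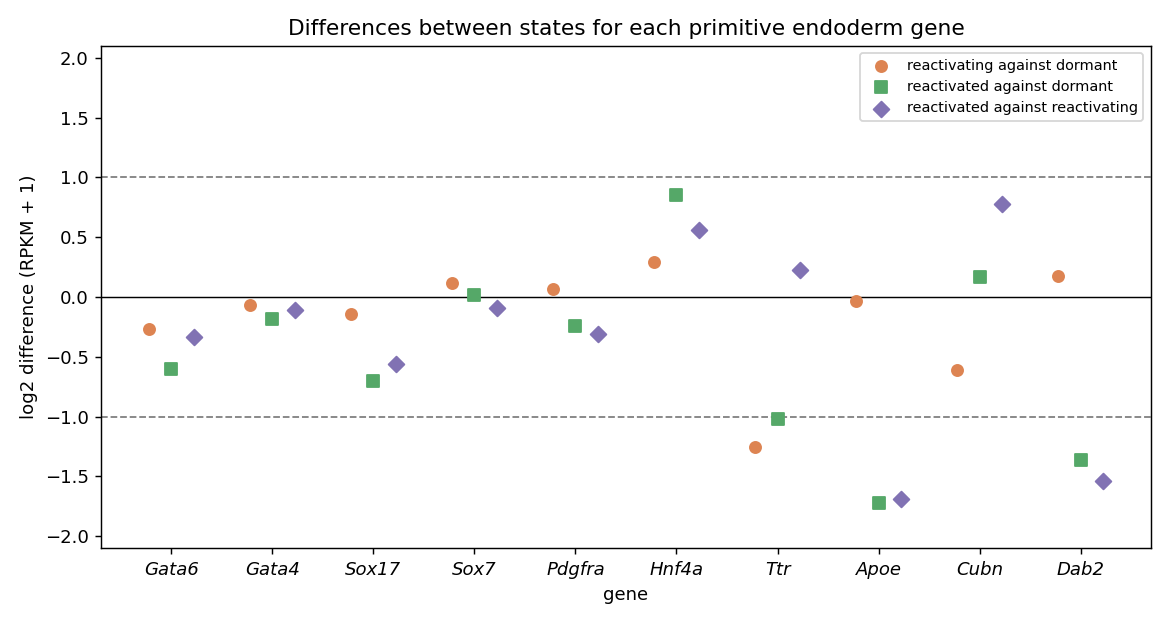
Log2 difference of (RPKM + 1) of each of the 10 genes in the 3 comparisons between states, with dashed lines at the size rule of 1 in either direction. Apoe and Dab2 passed it in both comparisons with the reactivated library, and Ttr in both comparisons with the dormant one.

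Counted together, 1 of 9 members tested fell and 0 rose from dormant to reactivating, against 3.07% of 12126 genes lower and 2.68% higher. Over the 9960 protein-coding genes among these, as all 10 members are, 0.291% were lower and 0.683% higher. From dormant to reactivated 3 of 10 fell and 0 rose, against 7.66% of 12037 genes lower and 5.27% higher (5.53% and 3.63% of protein-coding genes). From reactivating to reactivated 2 of 9 fell and 0 rose, against 7.63% of 12065 genes lower and 3.82% higher (6.60% and 2.44% of protein-coding genes). Ttr was the gene that fell at 6 h, and it reached the minimum of 1 RPKM only through its dormant level, so that its fall follows in part from the filter. Without it 0 of 8 members fell from dormant to reactivating and 2 of 9 from dormant to reactivated, with medians of -0.05 and -0.24. Of all genes past the rule between reactivating and reactivated 33.4% were higher, and 46.9% with scaling by the median ratio of genes. With Ttr, the median log2 differences of the members were -0.07, -0.42 and -0.31 in the 3 comparisons, and those of all genes tested 0.06, -0.07 and -0.13. With Ttr at its floor of 3 reads the first of these, for the members, was also -0.07. The 3 comparisons share libraries, so they are not independent. Counting intervals are narrow for abundant genes and often lie apart. They did so for 4 of 9 members between dormant and reactivating, against 29.8% of all genes tested, for 9 of 10 between dormant and reactivated, against 56.2%, and for 7 of 9 between reactivating and reactivated blastocysts, against 55.7%. These shares over all genes are not matched to the abundance of the members, so nothing particular to the members is read from the counts.

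Total RNA also holds unspliced RNA, so reads in introns were set beside those in exons. Of Sox17, 91 intron reads were found in the dormant, 60 in the reactivating and 24 in the reactivated library. The ratio of intron reads per library total was 0.593 (0.421 to 0.831) at 6 h and 0.196 (0.120 to 0.310) at 12 h against dormant. At 12 h this lies below the exon ratio of 0.581, and their intervals do not overlap. Across 8565 protein-coding genes with at least 40 intron reads in the pair, the median log2 ratio at 12 h was -0.21 for introns and -0.07 for exons, and 0.257% of these genes had an intron value at or below that of Sox17 (-2.35). Intron reads made up 12.2%, 8.38% and 4.48% of the exon and intron reads of Sox17 in dormant, reactivating and reactivated blastocysts.

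Cubn showed the opposite pattern. It had 370, 318 and 1250 intron reads in dormant, reactivating and reactivated blastocysts. The ratio at 12 h against dormant was 2.51 (2.24 to 2.83) for introns and 1.14 (1.07 to 1.23) for exons, and against 6 h 3.25 (2.87 to 3.69) for introns. Intron reads made up 22.5% (Wilson interval 20.5 to 24.6) of its exon and intron reads in dormant and 38.9% (37.2 to 40.6) in reactivated blastocysts. Of the same 8565 genes, 1.46% had an intron log2 ratio at or above that of Cubn (1.33), and 3.98% a difference between intron and exon log2 ratios at or above its 1.14.

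In 7 other genes the log2 ratios of exon and intron reads at 12 h lay closer together than in Sox17 and Cubn. Apoe had an intron ratio of 0.390 (0.264 to 0.568) and Dab2 of 0.419 (0.391 to 0.448), both well under 1 as in exons. Gata6 was at 0.502 (0.431 to 0.582) in introns, with an interval that overlaps that of its exons. Gata4 was at 0.688 (0.601 to 0.787), below its exon ratio of 0.876, and Pdgfra at 0.779 (0.642 to 0.944). At 6 h Dab2 was at 0.857 (0.809 to 0.909) in introns against 1.14 in exons. Hnf4a, with 10, 32 and 34 intron reads, had a ratio of 2.53 (1.22 to 5.74) at 12 h, and the 17, 17 and 16 intron reads of Sox7 gave 0.700 (0.331 to 1.47). Ttr differed more, with 6, 12 and 12 intron reads and an intron ratio of 1.49 (0.517 to 4.83) at 12 h beside its exon ratio of 0.124 (0.0135 to 0.557), each from few reads.

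**Figure D3:**
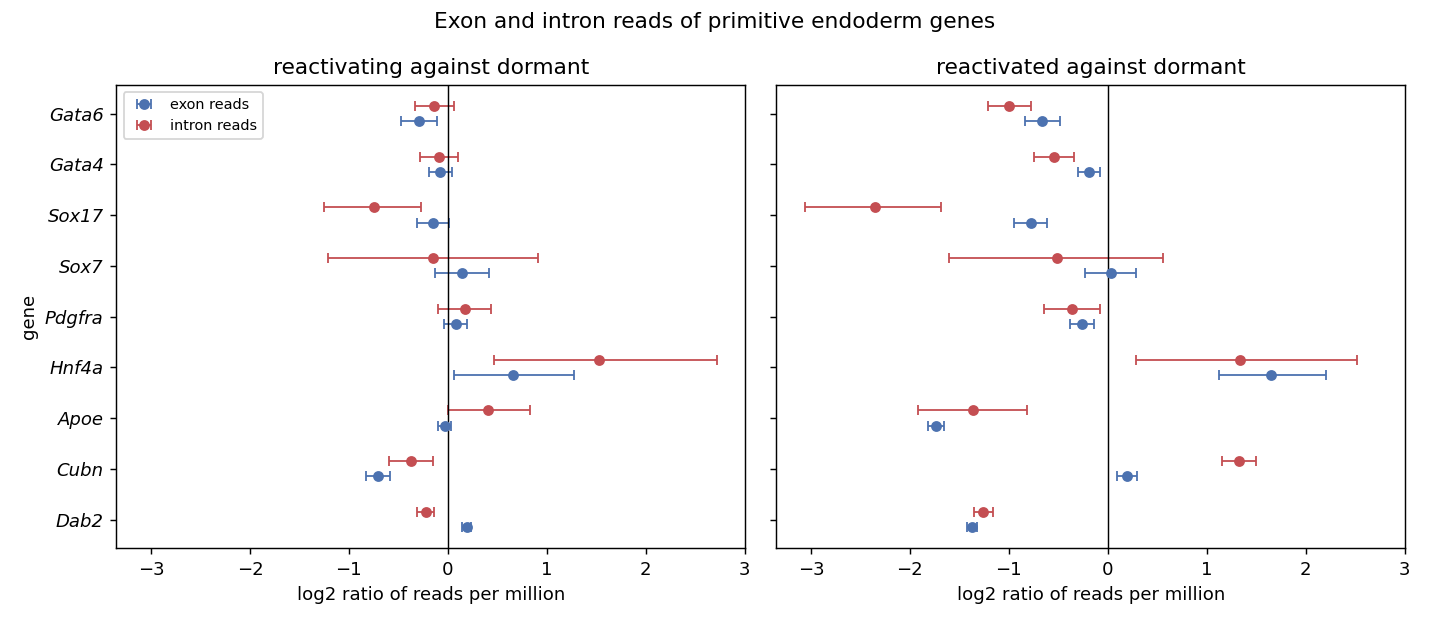
Log2 ratio of exon reads and of intron reads per library total for 9 genes, reactivating against dormant on the left and reactivated against dormant on the right, with bars for the exact 95% interval. At 12 h the intron reads of Sox17 stood below its exon reads and those of Cubn above, and Ttr, with few reads, is left out.

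Some of these intron reads may lie in exons that the authors' gene models lack. The exons of a gene merged over the GENCODE M21 annotation measure 14935 bases for Cubn against 11328 in the deposited tables, 4772 against 4071 for Sox17 and 7342 against 4547 for Dab2. On GRCm38 in M21, Sox17 lies on chromosome 1 at 4490931 to 4497354, Cubn on chromosome 2 at 13276338 to 13491813 and Hnf4a on chromosome 2 at 163506808 to 163572910. Pdgfra lies on chromosome 5 at 75152292 to 75198215, Apoe on chromosome 7 at 19696109 to 19699188 and Dab2 on chromosome 15 at 6299788 to 6440712. Gata4 and Sox7 share chromosome 14, at 63198922 to 63271692 and at 63943673 to 63950732. Small genes on the same strand overlap Pdgfra (Mir7025) and Hnf4a (Gm25881), and their reads could not be told apart from the hosts'.

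Genes of the surrounding pathways were counted in lists, from dormant to reactivated unless stated. Over all genes tested, 7.66% fell and 5.27% rose between these states. Fgfr3, Apoa1 and Rspo3, and the uterine cell markers Prap1 and Esam below, reached 1 RPKM only in the higher library. Their calls thus follow in part from the minimum. At 6 h against dormant no gene of these lists or of the PDGF list passed the rule, 7 lists in all. Esam, of the endothelium list, did rise at 6 h, from 0.230 to 1.58 RPKM (log2 difference 1.07). Over all genes tested 2.68% rose in that comparison. FGF signalling specifies the lineage, and of 10 genes of this input 1 fell and 0 rose. Fgfr3 fell from 3.05 RPKM over 2.56 RPKM at 6 h to 0.720 RPKM. Fgfr2, the receptor most abundant here, was at 54.5, 51.6 and 34.5 RPKM in dormant, reactivating and reactivated blastocysts. The ligand Fgf4 was at 6.08, 6.27 and 5.95 RPKM.

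Of 15 other endoderm transcription factors, 8 were tested, 2 fell and 0 rose. Sall4, a zinc finger factor of the inner cell mass, fell from 104 RPKM over 85.7 RPKM to 45.2 RPKM, and Nr5a2, an orphan nuclear receptor, from 24.8 RPKM over 24.6 RPKM to 9.60 RPKM. Cebpa, the most abundant, was at 112, 109 and 67.7 RPKM. Foxa2, a forkhead factor that is also on the uterine epithelium list, was at 1.82, 1.84 and 3.60 RPKM. Hnf4a and Foxa2 were thus each highest in the reactivated library, at levels under 4 RPKM. The median log2 difference of the 8 tested factors of this list was -0.56, so Foxa2 did not follow its list.

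In the endocytic receptor list, which holds the partners of Cubn and Dab2, 9 of 10 genes were tested and 0 rose or fell, with a median log2 difference of -0.60. Lrp2, the receptor megalin, was at 12.5 RPKM in dormant, 8.19 RPKM in reactivating and 6.46 RPKM in reactivated blastocysts. Its chaperone Lrpap1 was at 125, 92.9 and 64.1 RPKM (log2 difference -0.96). Amn, which carries cubilin to the membrane, was at 4.65, 4.35 and 4.22 RPKM. Gipc1, at 33.5, 45.5 and 21.6 RPKM, fell between 6 h and 12 h (-1.04), though not with scaling by the median ratio (-0.917).

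Of 10 basement membrane genes, products of the parietal endoderm among them, 0 rose or fell and the median was 0.28. Sparc was at 128, 158 and 170.2 RPKM, Lama1 at 107, 121 and 94.0 RPKM and Lamc1 at 104, 106 and 121 RPKM. Nid1 was at 62.7, 35.7 and 93.2 RPKM and rose between 6 h and 12 h (1.36). Like Cubn, it was lowest at 6 h and highest at 12 h.

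Most other secreted carriers were near 0. Of 14 carriers and apolipoproteins 4 were tested, 1 rose and 0 fell. Apoa1, an apolipoprotein of the visceral endoderm and liver, had 5, 4 and 51 exon reads and rose from 0.390 RPKM in dormant to 2.98 RPKM in reactivated blastocysts (1.52). Apoc1, a neighbour of Apoe, was at 35.5 RPKM in dormant, 38.9 RPKM in reactivating and 17.3 RPKM in reactivated blastocysts. It fell between 6 h and 12 h (-1.13) and was just short of the rule between dormant and reactivated. Afp, a fetal carrier protein, had 0, 1 and 2 exon reads and 5, 3 and 7 intron reads across dormant, reactivating and reactivated blastocysts.

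Of 18 further markers of the primitive endoderm and its descendants, 11 were tested, 1 rose and 1 fell. Krt19, a keratin that the trophectoderm also makes, rose from 16.0 RPKM over 17.8 RPKM to 123 RPKM (2.86). Rspo3, a secreted activator of WNT signalling, fell from 2.23 RPKM over 1.46 RPKM to 0.0900 RPKM (-1.57). Srgn and Tmprss2, the next of the list by mean RPKM, were at 28.1, 17.4 and 19.5 RPKM and at 27.1, 29.0 and 26.6 RPKM. Cer1, a marker of the anterior visceral endoderm, had no exon read in any library, beside 7, 27 and 27 intron reads and 6, 21 and 23 reads on the opposite strand.

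**Figure D4:**
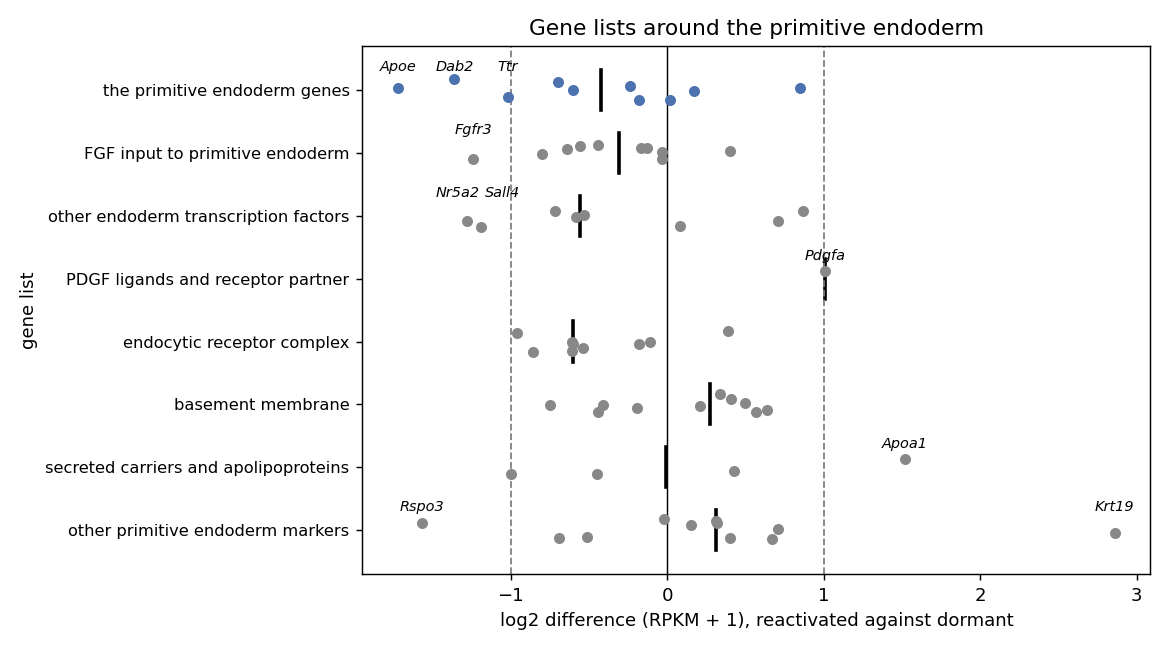
Log2 difference of (RPKM + 1), reactivated against dormant, of the tested genes of the 10 primitive endoderm genes (top) and of 7 related lists, 1 point per gene, with a black bar for the median and dashed lines at the size rule. Genes past the rule are named: 3 of the 10 primitive endoderm genes fell, against 7.66% of all genes tested. Of these 3, Ttr had only 12 exon reads in the dormant and 2 in the reactivated library. In the other lists Fgfr3, Sall4, Nr5a2 and Rspo3 fell, and Pdgfa, Apoa1 and Krt19 rose.

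Markers of the neighbouring lineage and of uterine cells were read in the same way. Of 10 epiblast markers, summed to 285, 328 and 277 RPKM, 1 (Klf2) fell from dormant to reactivated. Nanog was at 14.6, 21.7 and 17.7 RPKM and Pou5f1 at 87.1, 125 and 124 RPKM. Tfcp2l1, Esrrb and Klf4 were lowest in the reactivated library, at 52.7, 7.70 and 3.97 RPKM, against 87.6, 15.6 and 8.07 RPKM in dormant. The median log2 difference of the 10 epiblast markers from dormant to reactivated was -0.07. The 10 uterine epithelium markers summed to 111, 107 and 98.5 RPKM, and of 7 tested 1 rose (Prap1) and 2 fell (Wfdc2 and Lif). Prap1, a secreted protein of the uterine epithelium, had 6, 1 and 408 exon reads in dormant, reactivating and reactivated blastocysts, with 35.4 RPKM in the last, and the 9 other markers summed to 110.4, 107 and 63.1 RPKM. The 10 stroma markers summed to 9.07, 7.58 and 6.81 RPKM with 0 of 2 tested past the rule, and the 10 endothelium markers to 7.28, 8.12 and 5.97 RPKM with 1 of 3 higher (Esam) and 1 lower (Pecam1, inside the rule with scaling by the median ratio). The part of these cells in the levels of the 10 genes was not tested.

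Gata6 and Ttr lie on chromosome 18, at 11052064 to 11085635 and at 20665280 to 20674321. The merged exons of Gata6 in M21 measure 6508 bases against 3194 in the deposited tables, and those of Ttr 1186 against 614.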

How the data were processed

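For each of 3 libraries the authors deposited read counts per gene (exon, intron, junction and opposite-strand reads, per the file headers) and an RPKM computed from the exon reads. RNA was rRNA-depleted total RNA read as 50 bp single-end SOLiD reads, per the labels' protocols. GRCm38 is named in the submitters' processing notes; of the aligner and counter no name is given in the sources used here, nor of the annotation. The RPKM followed from the exon counts within 2% or 0.011 RPKM in all genes except Rlim in the reactivated library.

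Scripts in Python 3.11.15 (scipy 1.17.1) computed log2 differences of (RPKM + 1), which understate changes of low genes, exact Poisson intervals, exact binomial intervals of read ratios and Wilson intervals of shares, and were tested on simulated counts. Intervals and the floor of 3 reads cover counting error only, since each state has 1 library. Reads carry no molecular identifiers, so repeated reads of 1 molecule were counted as separate and the intervals may be too narrow. Coordinates came from GENCODE M21, which held 26687 of the gene identifiers (84.7%). The 10 genes, the 13 other lists and the rules were chosen with earlier results of these data known. Named genes were the 10 members, list genes past the size rule and the most abundant of each list, with 1 list gene not reported here; other list genes that are given (such as Foxa2, Amn and Afp) were chosen after their values were seen.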

Additional observations from a re-analysis of the deposited data

How the results depend on the processing

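Alternatives were a pseudocount of 0.1, CPM, scaling by upper quartile, by median ratio or without mitochondrial and short genes, and no minimum or one of 5 RPKM. In these, Apoe (-1.78 to -1.66) and Dab2 (-1.42 to -1.29) stayed past the size rule from dormant to reactivated, and no member past it changed direction. Over all settings, 194 values of single members stayed within their counting intervals and 16 moved further. With a pseudocount of 0.1 all-gene counts were 617 higher and 598 lower from dormant to reactivating, 959 and 1630 from dormant to reactivated, and 756 and 1618 from reactivating to reactivated. With CPM 1472 and 1546 genes were lower in the last 2 comparisons. In each of these 2 settings 1 member, Hnf4a, rose from dormant to reactivated. With a minimum of 5 RPKM 131 genes were higher and 185 lower from dormant to reactivating, with 0 members lower, and 290 and 610 from reactivating to reactivated. Scaling moved the all-gene median from reactivating to reactivated from -0.13 to -0.01 (median ratio), -0.03 (upper quartile) and -0.02 (without mitochondrial and short genes). Small differences of Pdgfra, Sox7 and Gata4 changed sign with scaling. No paired analysis was possible because each state has 1 library, and for the same reason none could be left out. Depth limits Ttr (12 exon reads at most) and Hnf4a.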

Other observations

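Ratios between members, per length, also moved. Gata4 was at 1.96 times Gata6 (95% interval 1.77 to 2.18) in the dormant, 2.28 times (2.05 to 2.53) in the reactivating and 2.71 times (2.44 to 3.02) in the reactivated library. Sox17 stood at 2.56 times Sox7 (2.19 to 3.01), 2.09 times (1.81 to 2.43) and 1.46 times (1.26 to 1.69). The ratio of Gata6 to Nanog, the factors of the primitive endoderm and the epiblast, was 0.808 (0.712 to 0.918) in the dormant, 0.444 (0.396 to 0.499) in the reactivating and 0.422 (0.375 to 0.475) in the reactivated library, with overlapping intervals at 6 h and 12 h and the dormant one above both.

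Among 4441 protein-coding genes that reached 10 RPKM in some library, those nearest to a member by the distance between their pairs of log2 differences from dormant were sought. Nearest to Apoe were Slc5a11 (distance 0.0422; 27.4, 25.9 and 7.66 RPKM) and App (0.0434; 59.1, 58.3 and 17.7 RPKM), of 5 genes within 0.1. Nearest to Dab2 were Dpp7 (0.0266; 40.1, 45.3 and 14.8 RPKM), a lysosomal peptidase, and Ddit3 (0.0323; 24.4, 28.4 and 8.79 RPKM), a stress-response factor, of 12 within 0.1. Ttr had none within 0.1, and Hist1h4c (0.101) was nearest. The likeness is over 3 libraries.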
